A study of Mus musculus with 12 samples.

Results

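The collagen chain genes of the mouse were examined in embryonic stem cells with and without Phf6, before and after 2 differentiation treatments. They were taken as all genes whose symbol reads Col, a type number, the letter a and a chain number. The rule found 44 genes among the 53379 genes of each deposited table. All 44 matched a protein-coding gene of GENCODE release M21, and 41 of them had enough reads to be tested.

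RNA was sequenced from ZHBTc4 cells, a mouse embryonic stem cell line of strain 129/Ola. As background, all 6 groups share the design of this line: both of its own Pou5f1 alleles are broken, and a transgene that can be shut off with doxycycline supplies Oct4, the factor that keeps the cells pluripotent. Wild type (WT) cells and Phf6 KO cells, which lack a chromatin-binding protein with PHD-type zinc fingers, were each left untreated, kept with doxycycline for 2 days, or given all-trans retinoic acid over 4 days without leukemia inhibitory factor. Each of the 6 groups had 2 libraries. The doxycycline dose reads 0.5 µg/ml in the sample labels and 0.5 mg/ml in the protocol text, and the retinoic acid dose reads 10 mM in the protocol text. Cells were labelled passage 1 and had been on mouse embryonic fibroblast feeders before they were moved to gelatin. No label names a batch, the origin of the replicates or the number of KO clones. The spread behind each p-value is therefore that of 2 libraries a group and may be technical. Only the retinoic acid samples had an added RNA kit step, so retinoic acid, the missing inhibitory factor, the longer culture and the kit cannot be told apart.

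Collagens are extracellular proteins built from 3 chains that wind into a triple helix, and each chain has its own gene. Collagen IV forms the sheet-like network of basement membranes, fibril-forming collagens (I, II, III, V, XI, XXIV and XXVII) build tensile fibres, and smaller classes sit on fibrils, span the cell membrane or anchor the network. In the early mouse embryo, parietal endoderm is known for laying down a thick basement membrane rich in collagen IV and laminin.

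Levels of 1 gene across groups are given as CPM, which are counts scaled to the TMM-adjusted library size, 1 value per library. Levels of different genes are compared in the deposited TPM, which are scaled to transcript length. A difference is the log2 change ± SE, and "rose", "fell", "higher" and "lower" are used of genes past an adjusted p of 0.05 in edgeR's quasi-likelihood test over 17884 genes. This SE can be smaller than the counting error of a gene with few reads. For 26 of the 44 genes the effective transcript length differed over 1.5-fold between libraries, up to 10.97-fold for Col3a1. Col4a1 is among the 26, at 1.55-fold. The tested change of a gene was therefore taken from counts and not from TPM. Shares, sums and numbers of genes given in TPM are set side by side across groups and carry this limit.

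Libraries held 15799569 to 21442034 counts. Phf6 stood at 29.9 to 42.8 CPM in the WT libraries and at 4.49 to 8.19 CPM in the KO libraries. Pou5f1 stood at 973 to 1196 CPM without doxycycline and at 13 to 46.3 CPM with it. Genes of chromosome 1 were lower in KO as a whole, with a median KO to WT change of -0.47, -0.48 and -0.47 over 840 genes in the 3 conditions, against 0.04, 0.02 and 0.01 on the other autosomes. The collagen genes on chromosome 1 are Col3a1, Col4a3, Col4a4, Col5a2, Col6a3, Col9a1 and Col19a1. Since bulk RNA was measured, a higher share of cells of one type and more RNA per cell cannot be told apart.

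Most collagen chain genes were transcribed at low levels, and every one had a read somewhere. In untreated WT cells 14 of the 44 genes had a mean of 1 TPM or more, 18 did with doxycycline and 30 with retinoic acid. In KO cells the numbers were 18, 22 and 31. Above 10 TPM there was 1 gene in untreated WT cells and there were 7 in KO cells with retinoic acid. The 11 genes at 1 TPM or more in all 12 libraries were Col4a1, Col4a2, Col5a1, Col7a1, Col9a2, Col9a3, Col11a1, Col11a2, Col18a1, Col20a1 and Col26a1.

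The other 3 genes fell below the filter. Col19a1, a fibril-associated collagen, had 0 reads in the 8 libraries without retinoic acid and 1, 2, 1 and 1 reads in the 4 with it. Col10a1, the collagen of hypertrophic cartilage, had at most 4 reads in a library. Col28a1 had 0 to 2 reads outside retinoic acid, 15 and 8 reads in the WT and 6 and 7 in the KO retinoic acid libraries. A count of 0 allows up to 3 counts, which is 0.14 to 0.19 CPM depending on the library and covers counting error only. Only Col19a1 stayed under 4 reads in every library, so it is the 1 member that was not detectable at this depth.

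Collagen transcripts made up a small and rising share of the libraries. They took 0.0391 ± 0.00156% (SD, n = 2) of the counts in untreated WT cells and 0.0448 ± 0.00106% in untreated KO cells. With doxycycline the share was 0.160 ± 0.00863% in WT and 0.160 ± 0.00516% in KO. With retinoic acid it was 0.416 ± 0.0151% in WT and 0.713 ± 0.0375% in KO. Both KO retinoic acid libraries lay above both WT ones.

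The chain that led the sum changed with the treatment. Col18a1 gave 61.4 ± 1.36% (SD, n = 2) of all collagen TPM in untreated WT cells and 66.0 ± 2.04% with doxycycline, but 16.5 ± 0.841% with retinoic acid. Col4a1 and Col4a2 together gave 10.9 ± 0.0424%, 22.7 ± 1.27% and 72.2 ± 1.68% in the same 3 groups. In KO cells their share was 12.7 ± 1.27%, 25.4 ± 1.81% and 79.4 ± 0.912%.

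**Figure D1:**
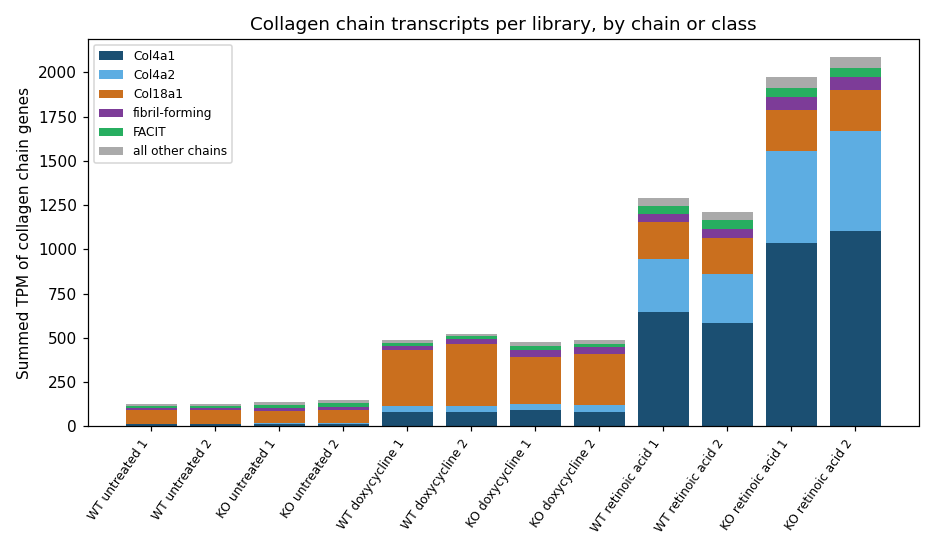
Summed TPM of the collagen chain genes (vertical axis) in each of the 12 libraries, stacked by chain or class. The sums average 126 TPM in untreated WT, 504 with doxycycline and 1250 with retinoic acid; doxycycline libraries are mostly Col18a1, and retinoic acid libraries are mostly Col4a1 and Col4a2, with the KO pair the tallest.

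By TPM the order of levels was steep at the top and flat below. In untreated WT cells Col18a1 stood at 77.0 ± 1.21 TPM (SD, n = 2), Col4a1 at 9.84 ± 0.601, Col9a2 at 5.61 ± 0.700, Col5a1 at 4.68 ± 1.27 and Col4a2 at 3.82 ± 0.566. Col9a2 and Col5a1 overlapped between their libraries, as did Col5a1 and Col4a2, so those neighbours were not separated. With retinoic acid in WT the order was Col4a1 at 615 ± 45.9 TPM, Col4a2 at 287 ± 15.6, Col18a1 at 207 ± 1.24, Col9a2 at 30.5 ± 3.74, Col5a1 at 12.9 ± 0.559 and Col11a1 at 10.7 ± 0.0141, and none of these 6 overlapped with its neighbour. In KO with retinoic acid Col4a1 reached 1069 ± 46.1 TPM and Col4a2 544 ± 34.3.

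**Figure D2:**
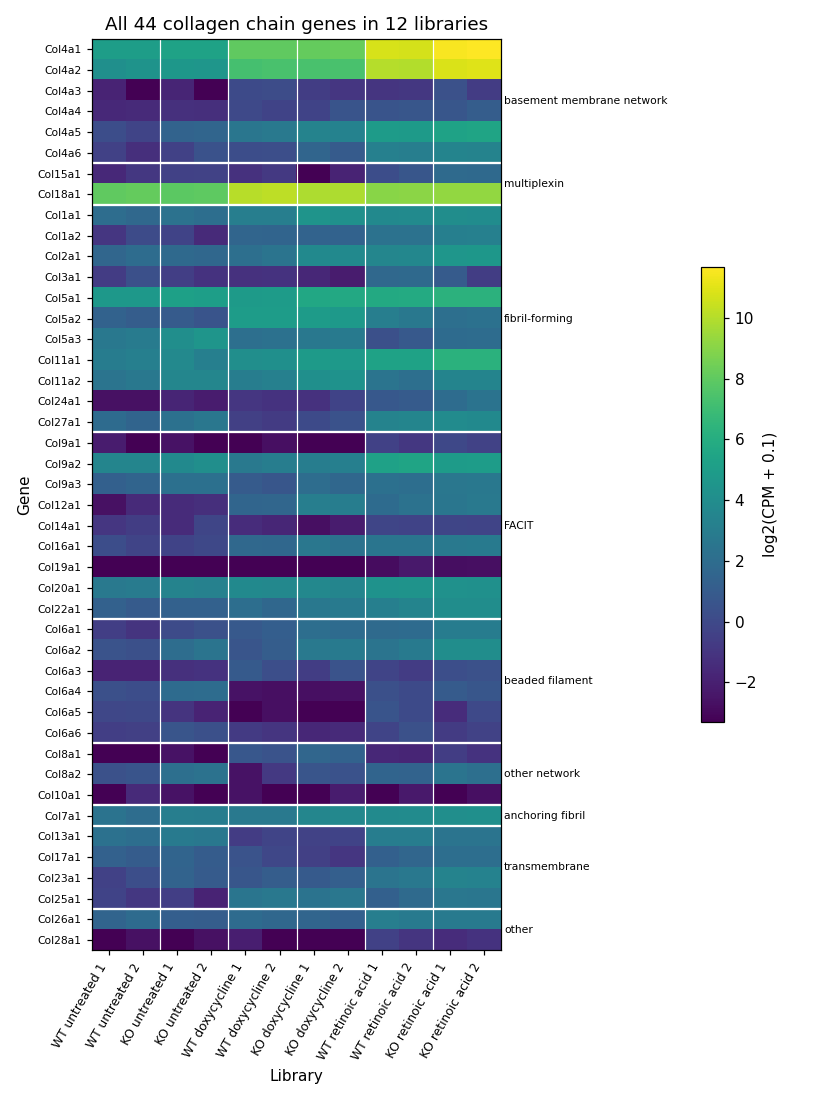
Level of each of the 44 collagen chain genes (rows, grouped by class) in the 12 libraries (columns), as log2(CPM + 0.1). Col4a1, Col4a2 and Col18a1 are the brightest rows, the 2 libraries of a group look alike for most genes, and Col19a1 and Col10a1 stay dark throughout.

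Retinoic acid moved the collagen genes mostly up. In WT cells 34 of the 41 tested genes rose and 1 fell, where 41.0% and 32.9% of all tested genes rose and fell (73.9% together). In KO cells 33 rose and 3 fell, where the background was 40.9% and 34.6% (75.5% together). The median log2 change of the 41 genes was 1.91 in WT (1.87 with Col8a1, at 0 in untreated WT, put at its bound) and 1.80 in KO, against 0.12 and 0.10 over all genes. In both lines 32 genes rose (35.4% of all tested genes) and 1, Col5a3, fell (28.8%). The 2 lines were each compared with their own untreated libraries.

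Doxycycline raised some collagen genes and lowered others. In WT cells 25 of 41 genes rose and 9 fell, with backgrounds of 31.8% and 31.3% (63.0% together). In KO cells 25 rose and 11 fell, with backgrounds of 31.2% and 31.2% (62.3% together). The median change was 0.73 in WT and 0.70 in KO, against 0.00 in both over all genes, and it was 1.00 in KO when genes with a group at 0 were put at their bound or left out. In both lines 24 genes rose (background 24.9%) and 8 fell (background 24.7%): Col5a3, Col6a4, Col6a5, Col8a2, Col9a2, Col13a1, Col17a1 and Col27a1. With upper-quartile scaling, which moved the median of all genes by -0.12 in WT, 23 genes rose and 10 fell there.

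**Figure D3:**
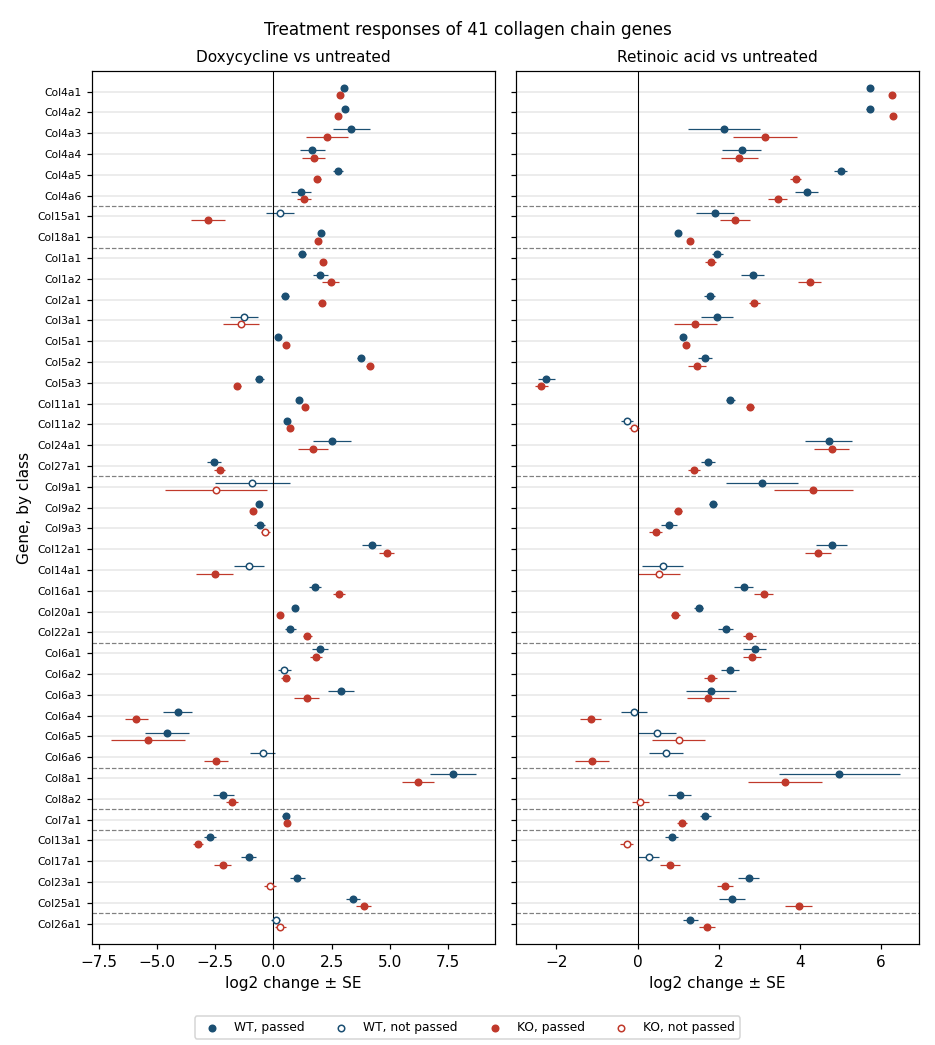
Log2 change ± SE (horizontal axis) of the 41 tested collagen genes with doxycycline (left) and retinoic acid (right) against untreated cells, WT in blue and KO in red, filled where the edgeR test was passed. Collagen IV genes lie to the right of 0 in both panels, and Col5a3 lies to the left in both; fitted values of Col8a1 in WT and of Col6a5 and Col9a1 in KO with doxycycline rest on a group at 0 and are not bounds.

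Phf6 KO cells had more collagen transcripts of many kinds than WT cells. In untreated cells 18 of 41 genes were higher in KO and 0 lower, where 15.2% and 14.9% of all tested genes were (30.0% together). The DESeq2 Wald test, with an adjusted p for 37 collagen genes, called 14 higher and 0 lower. The fit of only these 4 libraries called 18 higher and 2 lower. With doxycycline 19 were higher and 2 lower (backgrounds 17.9% and 19.1%, together 37.0%), and with retinoic acid 22 were higher and 4 lower (18.8% and 20%, together 38.8%). Over the 41 genes the median KO to WT difference came to 0.45 untreated, 0.19 with doxycycline and 0.52 with retinoic acid, against 0.02, 0.00 and -0.01 over all genes. With doxycycline it was 0.41 when 2 genes at or under the floor in both lines were left out.

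Higher in KO in all 3 conditions were 11 genes (background 4.02%): Col4a1, Col4a5, Col5a1, Col5a3, Col6a1, Col6a2, Col8a2, Col9a3, Col11a1, Col11a2 and Col27a1. Of these, only Col4a5, Col5a1, Col6a2 and Col11a2 kept all 3 calls under every alternative fit. Each of the others lost 1 or more of its calls under at least 1 alternative. No collagen gene was lower in all 3 (background 5.89%). Col18a1 and Col15a1 were the 2 lower with doxycycline, and Col3a1, Col5a2, Col9a2 and Col13a1 the 4 lower with retinoic acid. The 3 comparisons use different libraries of the same pair of lines.

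The size of a response differed between the lines for fewer genes. The doxycycline response was more positive in KO for 3 of 41 genes (background 9.11%) and more negative for 5 (background 10.0%, together 19.2%). These 8 genes were a share near the background. The retinoic acid response was more positive in KO for 6 (background 7.31%) and more negative for 6 (background 10.3%, together 17.6%). These counts were 2 and 6 in all by the DESeq2 Wald test, which gave an adjusted p for 31 collagen genes in each comparison. Col15a1 for doxycycline and Col6a6 for retinoic acid had none, so that test neither kept nor lost their calls. By that test 2 were more positive and 0 more negative for doxycycline, and 4 and 2 for retinoic acid. Without WT untreated replicate 1 the doxycycline count was 4, without KO untreated replicate 2 or WT doxycycline replicate 2 it was 5, and without WT untreated replicate 2 the retinoic acid count was 6.

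**Figure D4:**
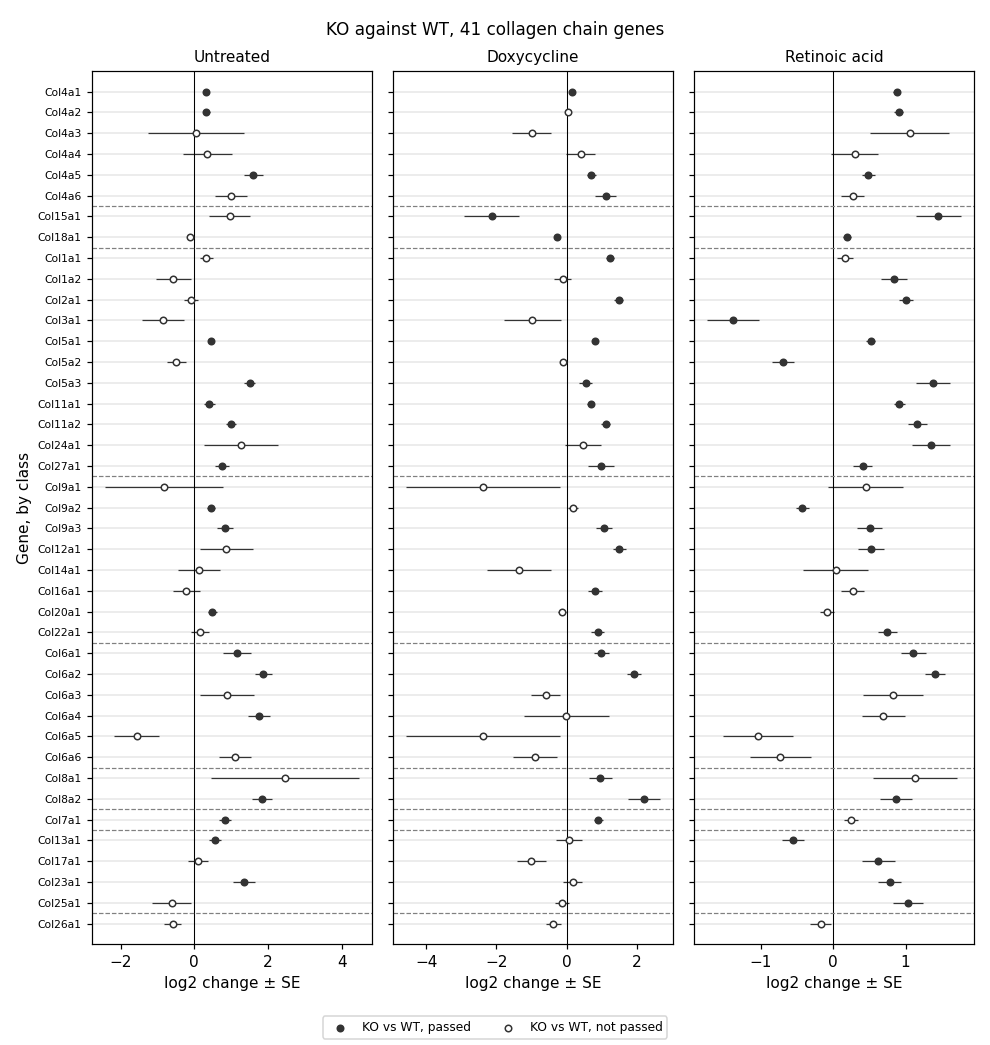
Log2 change of KO against WT ± SE (horizontal axis) for the 41 tested collagen genes in untreated, doxycycline and retinoic acid cells, filled where the edgeR test was passed. Col4a5, Col5a1, Col5a3, Col6a1, Col6a2, Col8a2 and Col11a2 are filled and to the right of 0 in every panel; Col8a1 untreated and Col6a5 and Col9a1 with doxycycline rest on a group at 0 and are not bounds.

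The basement membrane chains Col4a1 and Col4a2, which join in 1 triple helix, showed the steepest rise by retinoic acid. Col4a1 (ENSMUSG00000031502.11, chromosome 8, 11198423 to 11312826, minus strand, GRCm38) stood at 32.5 and 32.6 CPM in untreated WT, 258 and 265 with doxycycline, and 1787 and 1656 with retinoic acid. The KO libraries had 40.8 and 40.6, then 286 and 298, then 3020 and 3304 CPM. No 2 of the 6 groups overlapped. Its log2 change by retinoic acid was 5.73 ± 0.067 in WT (adjusted p = 3.5e-30) and 6.28 ± 0.068 in KO (adjusted p = 1.8e-31), and by doxycycline 3.01 ± 0.064 and 2.84 ± 0.062.

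Col4a2 (ENSMUSG00000031503.13, chromosome 8, 11312805 to 11449287, plus strand) moved alongside. It stood at 17.5 and 21.2 CPM in untreated WT, 152 and 168 with doxycycline, and 1056 and 978 with retinoic acid. KO values were 24.3 and 24, then 165 and 164, then 1810 and 1996 CPM. The 2 genes lie head to head, and their annotated first exons share 22 bases on opposite strands. The ratio of their counts, Col4a1 over Col4a2, lay between 1.54 and 1.86 in all 12 libraries. Reads on the shared bases cannot be assigned with no strand setting known, but these are 0.29% of the exon bases of Col4a1 and 0.33% of those of Col4a2.

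For Col4a1 and Col4a2 the difference between KO and WT was largest with retinoic acid. With retinoic acid the KO level was higher by 0.88 ± 0.051 for Col4a1 (adjusted p = 1.0e-13) and 0.90 ± 0.060 for Col4a2 (adjusted p = 3.5e-11). The response itself was larger in KO, by 0.55 ± 0.087 for Col4a1 (adjusted p = 3.1e-05) and 0.58 ± 0.11 for Col4a2 (adjusted p = 7.6e-04). In untreated cells both were higher by 0.32 (adjusted p = 7.5e-04 and 0.013). The Col4a2 call was lost without WT untreated replicate 1 or either KO untreated library (adjusted p 0.058 to 0.23). With doxycycline Col4a1 was higher by 0.16 ± 0.054, a call lost without WT doxycycline replicate 1 or KO doxycycline replicate 2 (adjusted p 0.094 to 0.16), and Col4a2 differed by 0.04 ± 0.065 (adjusted p = 0.70).

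**Figure D5:**
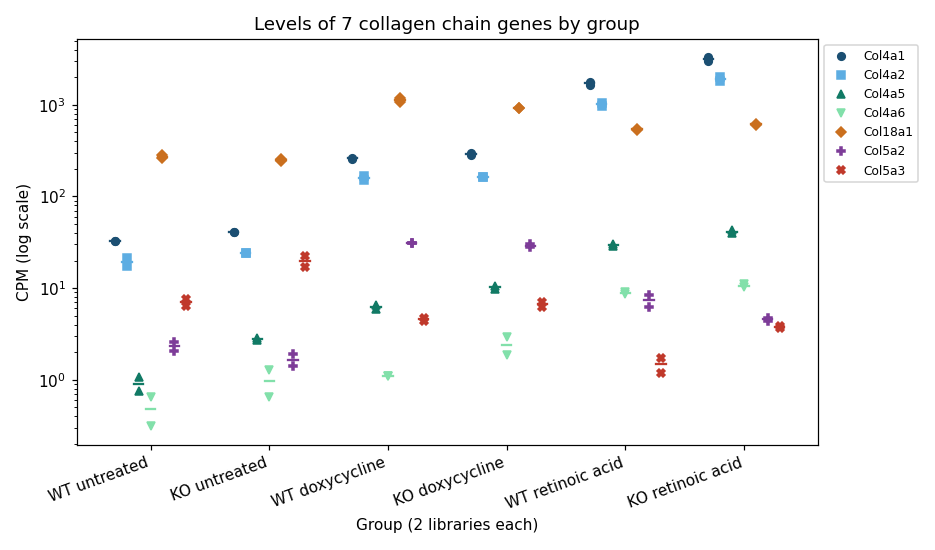
CPM on a log axis of 7 collagen genes in the 6 groups, 1 marker per library and a bar at the mean of 2. Col4a1 and Col4a2 climb from untreated to doxycycline to retinoic acid, Col18a1 and Col5a2 are highest with doxycycline, and Col5a3 is lowest with retinoic acid.

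Col4a5 and Col4a6, chains of the collagen IV of muscle and kidney basement membranes, face away from each other on the X chromosome, with 1308 bases between their annotated starts. Both rose by retinoic acid in both lines. The 200 bases before each start are shown because the 2 neighbours both rose. They run 5′ to 3′ on the gene's strand, from the RefSeq promoter table of GRCm38.p6, at chrX:141474077-141474276 for Col4a6 and chrX:141475185-141475384 for Col4a5. Capitals mark matches on either strand to any of 4 motifs. The GC box, GGGCGG, was found in 31.0% of 32851 promoter windows of this length. The CCAAT box, CCAAT, was found in 29.3% of them. The hormone receptor motif AGGTCA was found in 11.4%, and the TATA box, TATAAA, in 10.0%.
Col4a6: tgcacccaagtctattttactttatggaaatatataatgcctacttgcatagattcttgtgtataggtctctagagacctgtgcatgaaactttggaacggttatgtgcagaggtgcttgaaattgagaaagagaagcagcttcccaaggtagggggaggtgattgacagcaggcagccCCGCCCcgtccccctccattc
Col4a5: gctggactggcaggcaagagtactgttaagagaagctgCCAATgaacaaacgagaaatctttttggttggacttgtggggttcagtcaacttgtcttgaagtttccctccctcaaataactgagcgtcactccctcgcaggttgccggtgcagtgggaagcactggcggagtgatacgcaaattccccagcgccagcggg
The Col4a6 stretch held 1 GC box and the Col4a5 stretch 1 CCAAT box, and neither held the other 2 motifs.

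Col4a5 stood at 1.06 and 0.747 CPM in untreated WT, 5.86 and 6.61 with doxycycline, and 30.0 and 29.1 with retinoic acid. In KO cells the values were 2.69 and 2.86, then 10.6 and 9.86, then 39.6 and 43.3 CPM. KO libraries lay above WT libraries in each condition, by 1.61 ± 0.26, 0.70 ± 0.13 and 0.49 ± 0.084 (adjusted p = 1.5e-05, 6.1e-05 and 3.3e-05). Its rise by retinoic acid was smaller in KO, 3.90 ± 0.13 against 5.02 ± 0.16, a difference of -1.12 ± 0.27 (adjusted p = 0.0040, and 0.070 without WT untreated replicate 2). The rise by doxycycline differed by -0.90 ± 0.29 (adjusted p = 0.029), a call lost without any 1 of 5 libraries, WT untreated replicate 2, KO untreated replicates 1 and 2, and replicate 2 of either doxycycline group (adjusted p 0.052 to 0.23).

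Col4a6 stood at 0.647 and 0.311 CPM in untreated WT, 1.09 and 1.11 with doxycycline, and 9.11 and 8.53 with retinoic acid. Levels in KO were 0.641 and 1.28, then 2.91 and 1.85, then 11 and 10.2 CPM. It rose by retinoic acid by 4.17 ± 0.28 in WT and 3.45 ± 0.24 in KO. It passed the test between KO and WT with doxycycline, at 1.11 ± 0.30 (adjusted p = 0.0036, and 0.12 without KO doxycycline replicate 1). In untreated cells the difference was 0.99 ± 0.44 (adjusted p = 0.095) and with retinoic acid 0.27 ± 0.16 (adjusted p = 0.19).

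Col4a3 and Col4a4, the remaining pair, start 71 bases apart on chromosome 1 and were near the floor. Col4a3 had 3 and 0 reads in untreated WT and 3 and 0 in untreated KO, against 14 and 20 and 10 and 7 with doxycycline and 9 and 9 and 26 and 10 with retinoic acid. By reads it was 10.9-fold higher with doxycycline in WT, with a 95% counting interval of 3.42 to 55.3. Its rises in KO with doxycycline and in WT with retinoic acid were lost without any 1 of 2 and 3 libraries (adjusted p 0.10 to 0.24 and 0.068 to 0.25). It shares 563 exon bases with C430014B12Rik on the opposite strand, so its reads are uncertain. Col4a4 rose in all 4 treatment comparisons, from 0.235 and 0.249 CPM in untreated WT to 1.41 and 1.55 with retinoic acid, and its rise with doxycycline in KO was lost without KO doxycycline replicate 2 (adjusted p = 0.091). Neither gene differed past the test between KO and WT.

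Col18a1, a basement membrane collagen whose end fragment is endostatin, had the highest TPM of all collagen genes in the 4 groups without retinoic acid. It stood at 261 and 281 CPM in untreated WT, 1068 and 1181 with doxycycline and 529 and 548 with retinoic acid. In KO it stood at 242 and 255, then 915 and 935, then 605 and 621 CPM. Doxycycline raised it by 2.05 ± 0.055 in WT and 1.90 ± 0.055 in KO, and retinoic acid by 0.99 ± 0.054 and 1.3 ± 0.055. Its KO to WT difference changed sign with the condition, at -0.28 ± 0.052 with doxycycline (adjusted p = 8.0e-05) and 0.19 ± 0.053 with retinoic acid (adjusted p = 0.0058). The second call was lost without WT retinoic acid replicate 1 or KO retinoic acid replicate 2 (adjusted p 0.072 to 0.078). The response to retinoic acid was larger in KO by 0.31 ± 0.076 (adjusted p = 0.0040, and 0.051 without WT untreated replicate 2).

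Col15a1, the other multiplexin collagen, was rare. It had 4 and 7 reads in untreated WT, 5 and 9 with doxycycline and 24 and 30 with retinoic acid, against 10 and 11, 0 and 3, and 76 and 65 in KO. With retinoic acid it was higher in KO by 1.45 ± 0.31 (adjusted p = 4.3e-04). With doxycycline it was 4.68-fold lower in KO by reads, with a 95% counting interval of 1.31 to 25.4, a call lost without WT doxycycline replicate 2 or KO doxycycline replicate 1 (adjusted p 0.17 to 0.31).

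Among the fibril-forming chains, of which all 11 were tested, 9 rose and 1 fell by retinoic acid in each line, where 41.0% of all tested genes rose and 32.9% fell in WT and 40.9% and 34.6% in KO. By doxycycline 8 rose and 2 fell in each line, where 31.8% of all tested genes rose and 31.3% fell in WT and 31.2% and 31.2% in KO. In KO against WT, 5, 7 and 8 were higher in untreated, doxycycline and retinoic acid cells (15.2%, 17.9% and 18.8% of all tested genes), and 0, 0 and 2 lower (14.9%, 19.1% and 20%). The 3 collagen V genes went separate ways. Collagen V starts fibrils and sets their width, and its chains combine in different mixes.

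Col5a1 (ENSMUSG00000026837.15, chromosome 2, 27886425 to 28039514) and Col5a3 (ENSMUSG00000004098.7, chromosome 9, 20770050 to 20815067) were higher in KO in all 3 conditions but answered retinoic acid in opposite directions. The 200 bases before their starts are shown for that reason, with the same motifs in capitals, at chr2:27886225-27886424 (plus strand) for Col5a1 and chr9:20815068-20815267 (minus strand) for Col5a3.
Col5a1: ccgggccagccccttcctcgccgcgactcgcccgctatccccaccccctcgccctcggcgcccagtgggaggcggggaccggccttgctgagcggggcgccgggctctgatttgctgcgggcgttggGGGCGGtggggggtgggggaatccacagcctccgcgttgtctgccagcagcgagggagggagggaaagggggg
Col5a3: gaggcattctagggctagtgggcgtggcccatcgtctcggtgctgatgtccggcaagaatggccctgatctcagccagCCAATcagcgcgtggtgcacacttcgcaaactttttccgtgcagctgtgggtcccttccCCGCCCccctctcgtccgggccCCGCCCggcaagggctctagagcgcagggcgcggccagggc
Col5a1 held 1 GC box, and Col5a3 held 2 GC boxes and 1 CCAAT. Their GC content was 75.5% and 67.0%, against a median of 53.0% over all windows.

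Col5a1 stood at 25.9 and 26.1 CPM in untreated WT, 28.5 and 30.4 with doxycycline and 56.2 and 57.0 with retinoic acid. The KO libraries had 36.8 and 34.2, then 50.6 and 53.8, then 80.5 and 81.5 CPM. KO was higher by 0.45 ± 0.074, 0.82 ± 0.068 and 0.52 ± 0.059 (adjusted p = 2.2e-05, 1.0e-10 and 4.0e-08). Its small rise by doxycycline in WT, 0.18 ± 0.075 (adjusted p = 0.036), was lost under 8 alternatives, 2 other scalings among them (adjusted p 0.086 with size factors and 0.47 with upper-quartile factors).

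Col5a3 stood at 6.41 and 7.53 CPM in untreated WT, 4.36 and 4.74 with doxycycline and 1.19 and 1.75 with retinoic acid. KO values were 17 and 22.2, then 6.26 and 7.05, then 3.70 and 3.87 CPM. It fell by retinoic acid by 2.26 ± 0.21 in WT and 2.38 ± 0.16 in KO on the log2 scale, the 1 collagen gene to fall in both lines. Its change with doxycycline was -0.61 in WT (lost without WT untreated replicate 2, adjusted p = 0.060) and -1.56 in KO. KO was higher by 1.5 ± 0.15, 0.54 ± 0.18 and 1.38 ± 0.23 (adjusted p = 4.7e-09, 0.017 and 1.6e-05). The middle call was lost without WT doxycycline replicate 1 or KO doxycycline replicate 2 (adjusted p 0.092 to 0.11).

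Col5a2, on chromosome 1, had the opposite profile. It stood at 2.59 and 2.06 CPM in untreated WT, 31.1 and 31.1 with doxycycline and 8.45 and 6.28 with retinoic acid. In KO cells the values were 1.92 and 1.40, then 30.3 and 27.9, then 4.40 and 4.76 CPM. Doxycycline raised it by 3.74 ± 0.15 in WT and 4.13 ± 0.16 in KO (adjusted p = 1.9e-18 and 1.2e-18). The count ratio of Col5a1 to Col5a2 went from 10.0 and 12.7 in untreated WT to 0.91 and 0.98 with doxycycline, and in KO from 19.2 and 24.5 to 1.67 and 1.93. With retinoic acid Col5a2 was lower in KO by -0.70 ± 0.15 (adjusted p = 5.0e-04, and 0.052 without WT retinoic acid replicate 1), where the median of chromosome 1 genes was -0.47. What part of it that shift makes was not tested.

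Col1a1 and Col1a2, the chains of the collagen of bone, skin and tendon, were 3.24 and 4.00 CPM for Col1a1 and 0.412 and 0.996 CPM for Col1a2 in untreated WT. Col1a1 rose to 8.51 and 8.43 CPM with doxycycline in WT and to 21.6 and 18.5 in KO, from 4.93 and 4.19. Col1a2 reached 2.86 and 2.78 CPM in WT and 2.69 and 2.51 in KO. With doxycycline Col1a1 was higher in KO, by 1.25 ± 0.12 (adjusted p = 1.3e-09), against -0.11 ± 0.25 for Col1a2 (adjusted p = 0.76). The difference between the 2 genes was not tested. Their count ratio was 2.98 and 3.04 in WT and 8.04 and 7.38 in KO. With retinoic acid Col1a2 was higher in KO by 0.84 ± 0.18 (adjusted p = 4.4e-04) and Col1a1 by 0.16 ± 0.11 (adjusted p = 0.24), with ratios of 2.81 and 2.85 in WT and 1.85 and 1.69 in KO.

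Col2a1, the main cartilage collagen, was 3.06 and 3.92 CPM in untreated WT and 3.40 and 3.10 in untreated KO. With doxycycline it was 4.36 and 5.30 CPM in WT and 13.6 and 13.7 in KO, and with retinoic acid 11.7 and 12.2 in WT and 23.2 and 24.7 in KO. Untreated libraries of the lines overlapped and treated ones did not. The doxycycline response was larger in KO by 1.58 ± 0.23 (adjusted p = 1.1e-05), and the retinoic acid response by 1.10 ± 0.22 (adjusted p = 4.5e-04). Its rise with doxycycline in WT, 0.49 ± 0.17 (adjusted p = 0.015), was lost without WT untreated replicate 1 or WT doxycycline replicate 2 (adjusted p 0.19 to 0.22) and with upper-quartile scaling (adjusted p = 0.061).

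Col11a1 and Col11a2, the fine-fibril partners of Col2a1 in cartilage, differed from each other in retinoic acid. Col11a1 was 7.65 and 8.90 CPM in untreated WT and 40.2 and 40.1 with retinoic acid, and in KO 13.1 and 8.94, then 75.4 and 76.1. Col11a2 was 5.41 and 6.47 CPM in untreated WT and 5.42 and 4.39 with retinoic acid, and in KO 11.9 and 11.7, then 11 and 11. Col11a1 rose by 2.28 ± 0.11 and 2.78 ± 0.099, while Col11a2 changed by -0.27 ± 0.15 (adjusted p = 0.12) and -0.09 ± 0.12 (adjusted p = 0.49). In KO against WT Col11a2 was higher by 0.99 ± 0.14, 1.11 ± 0.12 and 1.16 ± 0.13. Col11a1 was higher by 0.41 ± 0.14, 0.69 ± 0.10 and 0.91 ± 0.079, the first call being lost without replicate 1 of either untreated group (adjusted p 0.22 to 0.64).

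The other fibril-forming genes were rarer. Col27a1, a cartilage fibril collagen, was 3.65 and 2.80 CPM in untreated WT, 0.613 and 0.505 with doxycycline and 10.5 and 11.1 with retinoic acid, so it fell by doxycycline (-2.54 ± 0.30) and rose by retinoic acid (1.73 ± 0.17), as it did in KO (-2.31 ± 0.23 and 1.38 ± 0.15). It was higher in KO in all 3 conditions, by 0.76 ± 0.19, 0.99 ± 0.37 and 0.41 ± 0.13, but each call was lost without any 1 of 2 or 3 libraries (adjusted p 0.064 to 0.21). Col24a1 had 1 and 1 reads in untreated WT, 37 and 38 with retinoic acid in WT, and 83 and 98 with it in KO. The WT rise was 29.0-fold by reads, with a 95% counting interval of 7.75 to 244. With retinoic acid Col24a1 was higher in KO by 1.35 ± 0.26 (adjusted p = 1.4e-04). Col3a1, a chain of elastic tissues on chromosome 1, was 0.529 and 1.18 CPM in untreated WT and 3.30 and 3.34 with retinoic acid, against 1.92 and 0.575 in KO. It was lower in KO there by -1.38 ± 0.36 (adjusted p = 0.0037), a call lost without KO retinoic acid replicate 2 (-0.79, adjusted p = 0.10), the lower of that pair.

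Collagen VI forms beaded filaments around cells, and its core chains Col6a1 and Col6a2 were higher in KO in every condition. Col6a2 (ENSMUSG00000020241.13, chromosome 10, 76595762 to 76623630, minus strand) stood at 1.35 and 1.18 CPM in untreated WT, 1.43 and 2.02 with doxycycline and 5.37 and 7.03 with retinoic acid. Levels in KO were 3.97 and 5.35, then 6.49 and 6.93, then 16.3 and 16.3 CPM. KO was higher by 1.87 ± 0.24, 1.92 ± 0.21 and 1.40 ± 0.14 (adjusted p = 6.9e-07, 1.8e-08 and 5.1e-09), and none of the 3 calls was lost under any alternative. The 200 bases before its start, at chr10:76623631-76623830, are shown as those of the collagen gene with the largest called KO to WT change in untreated cells.
Col6a2: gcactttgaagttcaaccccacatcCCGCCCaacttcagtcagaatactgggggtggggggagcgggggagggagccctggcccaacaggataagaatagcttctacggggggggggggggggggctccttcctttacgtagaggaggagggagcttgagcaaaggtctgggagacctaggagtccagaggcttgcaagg
This stretch held 1 GC box, and its GC content was 61.0%.

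Col6a1 stood at 0.588 and 0.374 CPM in untreated WT and 0.961 and 1.22 in KO, 1.70 and 2.17 and 4.14 and 3.65 with doxycycline, and 3.52 and 3.74 and 7.82 and 7.79 with retinoic acid. KO was higher by 1.16 ± 0.38, 0.99 ± 0.22 and 1.10 ± 0.17, and the untreated call was lost without WT untreated replicate 2 or KO untreated replicate 2 (adjusted p 0.17 to 0.19). Retinoic acid raised both chains in both lines, Col6a1 by 2.89 ± 0.29 and 2.83 ± 0.22 and Col6a2 by 2.28 ± 0.22 and 1.80 ± 0.16. Doxycycline raised Col6a1 by 2.00 ± 0.34 and 1.83 ± 0.25 and Col6a2 in KO (0.52 ± 0.18, adjusted p = 0.012, lost without KO untreated replicate 1 or KO doxycycline replicate 2, adjusted p 0.058 to 0.19). In WT its change was 0.47 ± 0.29 (adjusted p = 0.17).

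Col6a4, Col6a5 and Col6a6, other chains of this family, had few reads with doxycycline. Col6a4 had 20 and 17 reads in untreated WT and 58 and 64 in untreated KO, and 1 read in each of the 4 doxycycline libraries. By reads it was 19.3-fold lower in WT (95% counting interval 4.98 to 165) and 65.9-fold lower in KO (17.8 to 550.0). It was higher in KO in untreated cells, by 1.76 ± 0.29 (adjusted p = 2.1e-05). Col6a5 had 14 and 14 reads in untreated WT and 6 and 3 in KO, then 0 and 1 and 0 and 0 with doxycycline, so it was at least 1.63-fold lower in KO. Col6a6 fell by doxycycline in KO (-2.47 ± 0.51, adjusted p = 1.3e-04), from 1.47 and 1.16 to 0.224 and 0.239 CPM, and its change in WT was -0.47 ± 0.52 (adjusted p = 0.45). Col6a3, the third core chain, rose in all 4 treatment comparisons, and in WT with doxycycline from 0.176 and 0.187 to 1.77 and 1.11 CPM. Its rises with doxycycline in KO and with retinoic acid in WT were lost without any 1 of 3 and 2 libraries (adjusted p 0.068 to 0.39 and 0.059 to 0.076).

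Collagens of the FACIT class lie on the surface of fibrils, and 7 of the 8 tested rose by retinoic acid in each line, 0 falling. The share of all tested genes that rose was 41.0% in WT and 40.9% in KO. By doxycycline 4 rose and 2 fell in each line, so 6 of 8 passed the test where 63.0% of all tested genes did in WT and 62.3% in KO, a share near the background. Col9a2, a chain of collagen IX, led the class at 11.3 and 11.2 CPM in untreated WT, 6.61 and 8.02 with doxycycline and 38.8 and 43.8 with retinoic acid. In KO it was 14 and 16.8, then 8.0 and 8.90, then 30.4 and 31.0 CPM. Its KO to WT difference was 0.45 ± 0.12 in untreated cells (adjusted p = 0.0038, and 0.12 without KO untreated replicate 2) and -0.43 ± 0.087 with retinoic acid (adjusted p = 2.5e-04). The smaller rise in KO, 0.99 ± 0.10 against 1.87 ± 0.10, was past the test for the difference, -0.88 ± 0.15 (adjusted p = 5.7e-05).

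Col9a3, its partner chain, was higher in KO in all 3 conditions, by 0.84 ± 0.21, 1.07 ± 0.23 and 0.51 ± 0.17. The last call was lost without any 1 of the 4 libraries (adjusted p 0.060 to 0.094). It shares 234 exon bases with Tcfl5 on the opposite strand and its deposited count was not whole in any of the 12 libraries, so its values are uncertain. Col9a1 had 0 to 2 reads per library without retinoic acid, and 15 and 9 in WT and 18 and 13 in KO with it.

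Col12a1, a FACIT collagen of dense connective tissue, went from 1 and 4 reads in untreated WT to 42 and 59 with doxycycline and 85 and 101 with retinoic acid. In KO it went from 4 and 5 to 149 and 138 and to 127 and 126. Doxycycline raised it by 4.21 ± 0.42 in WT and 4.85 ± 0.31 in KO, and the KO level with doxycycline was higher by 1.5 ± 0.19 (adjusted p = 3.1e-07). With retinoic acid KO was higher by 0.52 ± 0.18, a call lost without WT retinoic acid replicate 1 or KO retinoic acid replicate 2 (adjusted p 0.15 to 0.29).

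Col16a1 and Col22a1 rose in all 4 treatment comparisons. Col16a1 went from 1.06 and 0.747 CPM in untreated WT to 3.20 and 3.08 with doxycycline and 5.68 and 5.54 with retinoic acid, and Col22a1 from 2.47 and 1.87 to 4.22 and 3.13 and to 8.80 and 10.9. The rise of Col22a1 with doxycycline in WT was lost without WT untreated replicate 2 or WT doxycycline replicate 1 (adjusted p 0.080 to 0.082). Both were higher in KO with doxycycline, by 0.81 ± 0.19 and 0.88 ± 0.18, and Col22a1 also with retinoic acid, by 0.75 ± 0.13. Col20a1 rose in all 4 comparisons too, and less in KO, by -0.62 ± 0.17 for doxycycline (lost without WT untreated replicate 1, adjusted p = 0.066) and -0.58 ± 0.16 for retinoic acid (lost without replicate 1 of either untreated group, adjusted p 0.056 to 0.082). Its levels with doxycycline were 13.7 and 13 CPM in WT and 12.9 and 11.5 in KO, from 6.59 and 7.53 and from 10.2 and 9.60. Its rise with doxycycline in KO, 0.30 ± 0.12, was lost without KO untreated replicate 2 or KO doxycycline replicate 1 (adjusted p 0.16 to 0.22), and its untreated KO to WT difference of 0.49 ± 0.13 without WT untreated replicate 1 (adjusted p = 0.071). Col14a1 passed the test once, falling by doxycycline in KO from 4 and 13 to 1 and 2 reads, a 6.12-fold change by reads with a 95% counting interval of 1.77 to 32.6. That call was lost without KO untreated replicate 2 or KO doxycycline replicate 1 (adjusted p 0.062 to 0.23).

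The network collagens Col8a1 and Col8a2, which line vessels and the cornea, parted under doxycycline. Col8a1 had 0 reads in both untreated WT libraries and 1 and 0 in KO, and 23 and 26 and 54 and 43 with doxycycline. It was thus at least 7.92-fold higher with doxycycline in WT, taking 3 counts per library as the floor, and 89.8-fold higher in KO by reads (95% counting interval 16 to 3585). With retinoic acid it had 5 and 4 reads in WT, at least 1.16-fold higher than untreated. Col8a2 was 1.23 and 1.37 CPM in untreated WT and 4.36 and 4.98 in KO, and fell with doxycycline to 0.0681 and 0.454 in WT and 1.45 and 1.25 in KO. It was higher in KO by 1.84 ± 0.27, 2.21 ± 0.45 and 0.86 ± 0.22 (adjusted p = 4.3e-06, 2.5e-04 and 0.0023), the last call being lost without KO retinoic acid replicate 1 (adjusted p = 0.068). Col8a1 was higher in KO with doxycycline by 0.97 ± 0.34 (adjusted p = 0.027), a call lost without any 1 of 3 libraries (adjusted p 0.055 to 0.16).

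Col7a1, the chain of the fibrils that anchor epithelium to the tissue below, was 5.23 and 3.99 CPM in untreated WT, 6.54 and 6.71 with doxycycline and 14.3 and 15.3 with retinoic acid. In KO it was 8.46 and 8.02, then 11.9 and 12.9, then 17.3 and 17.8 CPM. It was higher in KO by 0.83 ± 0.15 untreated and 0.90 ± 0.13 with doxycycline (adjusted p = 7.1e-05 and 1.9e-06), and by 0.25 ± 0.10 with retinoic acid, which missed the threshold (adjusted p = 0.061). It rose in all 4 treatment comparisons, and its rise of 0.52 ± 0.15 with doxycycline in WT was lost without WT untreated replicate 2 (adjusted p = 0.098).

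Of the 4 transmembrane collagens, Col25a1, a neuronal chain, rose by both treatments, and Col13a1 and Col17a1, which sit in junctions of cells with the matrix, fell by doxycycline. Col25a1 went from 0.706 and 0.436 CPM in untreated WT to 5.72 and 6.41 with doxycycline and 2.38 and 3.49 with retinoic acid, and in KO from 0.577 and 0.182 to 5.09 and 6.04 and to 6.13 and 5.81. It was higher in KO with retinoic acid by 1.03 ± 0.21 (adjusted p = 1.9e-04). Col13a1 went from 4.71 and 4.23 CPM in untreated WT to 0.545 and 0.757 with doxycycline and 8.14 and 7.98 with retinoic acid, and in KO from 6.92 and 6.26 to 0.671 and 0.717 and to 5.47 and 5.49. It rose by retinoic acid in WT (0.85 ± 0.16) and changed by -0.26 ± 0.16 in KO (adjusted p = 0.13), a difference of -1.11 ± 0.22 (adjusted p = 5.3e-04).

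Col17a1 fell by doxycycline by 1.06 ± 0.31 in WT and 2.18 ± 0.36 in KO on the log2 scale, and the WT call was lost without WT untreated replicate 1 or WT doxycycline replicate 2 (adjusted p 0.060 to 0.11). Col23a1 rose by retinoic acid from 0.647 and 1.12 to 5.37 and 6.43 CPM in WT and from 2.63 and 1.88 to 10.4 and 9.78 in KO. It was higher in KO untreated by 1.35 ± 0.31 (adjusted p = 0.0014, and 0.051 without WT untreated replicate 1) and with retinoic acid by 0.78 ± 0.16 (adjusted p = 3.8e-04). Col26a1, a small secreted collagen, was 2.71 and 3.67 CPM in untreated WT and 8.41 and 7.28 with retinoic acid, and passed the test only in the retinoic acid comparisons (1.3 ± 0.18 in WT and 1.71 ± 0.20 in KO).

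The genes that make, cross-link, bind and break down collagen were counted from lists chosen with earlier results of these data known. Their counts are to be read against all tested genes, of which 41.0% rose and 32.9% fell by retinoic acid in WT and 40.9% and 34.6% in KO. By doxycycline 31.8% rose and 31.3% fell in WT, and 31.2% and 31.2% in KO. In KO against WT 15.2%, 17.9% and 18.8% were higher and 14.9%, 19.1% and 20% lower in untreated, doxycycline and retinoic acid cells. Of 23 tested genes for hydroxylation, glycosylation and folding, 17 rose and 1 fell by retinoic acid in WT and 20 rose and 1 fell in KO, with medians of 0.65 and 1.12 against 0.12 and 0.10 over all genes. Serpinh1, the chaperone of the collagen triple helix, stood at 58.3 and 66.0 CPM in untreated WT, 406 and 436 with doxycycline and 965 and 924 with retinoic acid, and at 53.1 and 54.1, 352 and 303, and 1697 and 1802 in KO. P4ha1, a prolyl hydroxylase subunit that stabilises the helix, was at 127 and 140 CPM in WT and 291 and 306 in KO with retinoic acid. In KO against WT this list had 10 higher and 5 lower in untreated cells, 15 and 4 with doxycycline, and 17 and 2 with retinoic acid. Mia3, which helps collagen leave the endoplasmic reticulum, was at 39.3 and 37.5 CPM in untreated KO and 52.9 and 55.7 in untreated WT.

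Of 13 tested genes for processing and cross-linking, 8 rose and 4 fell by retinoic acid in WT and 8 rose and 5 fell in KO, where 73.9% and 75.5% of all tested genes changed. By doxycycline 2 rose and 8 fell in WT, with a median of -1.47, and 4 rose and 6 fell in KO, with a median of -0.08, where 63.0% and 62.3% of all tested genes changed. Pxdn, the peroxidase that cross-links collagen IV, rose from 24 and 26 to 185 and 177 CPM with retinoic acid in WT, and from 32.5 and 32.8 to 288 and 296 in KO. Pcolce, an enhancer of procollagen cleavage, fell from 136 and 143 to 12.6 and 12.5 CPM in WT and from 134 and 126 to 5.29 and 5.23 in KO. In KO against WT 5 of the 13 were higher and 0 lower untreated, and 4 higher and 2 lower with retinoic acid, where the background was 15.2% and 14.9%, and 18.8% and 20%. With doxycycline 9 were higher and 1 lower, where the background was 17.9% and 19.1%. Among the higher were Bmp1, the protease that trims procollagen, by 1.28 ± 0.11 (adjusted p = 2.0e-10), and Loxl2, a lysyl oxidase, by 1.52 ± 0.20 (adjusted p = 5.5e-06).

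The basement membrane partners of collagen IV, which are laminins, nidogens, perlecan, agrin, Sparc and fibronectin, all rose by retinoic acid in WT (11 of 11, where 41.0% of all tested genes rose) and 10 of 11 rose in KO (where 40.9% rose). Lama1 went from 99.6 and 90.9 to 1969 and 1891 CPM in WT and from 154 and 148 to 3496 and 3597 in KO. Lamb1 went from 121 and 120 to 1504 and 1487 in WT and from 93.9 and 91.0 to 2696 and 2859 in KO. In KO against WT 3 were higher and 5 lower in untreated cells, where 15.2% and 14.9% of all tested genes were. With doxycycline 3 were higher and 3 lower (17.9% and 19.1% of all tested genes). With retinoic acid 8 were higher and 2 lower (18.8% and 20% of all tested genes), and fibronectin (Fn1) was among the lower, by -0.69 ± 0.061. Of 8 tested receptors, 5 rose and 1 fell by retinoic acid in each line, so 6 of 8 changed where 73.9% of all tested genes did in WT and 75.5% in KO, a share near the background. Mrc2, which takes up collagen fragments, was at 58.5 and 57.3 CPM in WT and 127 and 135 in KO with it. Of 11 tested genes for degradation, 9 rose and 2 fell by retinoic acid in WT and 8 rose and 2 fell in KO, where 41.0% of all tested genes rose and 32.9% fell in WT and 40.9% and 34.6% in KO.

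Markers of cell types moved with these groups. Of the 14 parietal endoderm markers, Lama1, Lamb1, Lamc1 and Sparc also stand among the basement membrane partners. The 14 summed to 1236 to 1279 CPM in untreated WT and 860 to 874 in untreated KO. With retinoic acid the sum was 7097 to 7256 CPM in WT and 12130 to 12710 in KO. Lama1, Lamb1, Lamc1 and Sparc gave most of each of these sums. All 14 had over 3 reads in both libraries of each retinoic acid group, and Gata6 stood at 58.0 and 54.9 CPM in WT and 95.2 and 101 in KO. The 10 visceral endoderm markers summed to 461 to 468 CPM in WT and 1579 to 1600 in KO with retinoic acid, most of it Cubn, and Afp and Ttr were at 0 in untreated cells. The 12 trophectoderm markers summed to 162 to 168 CPM in untreated WT, 2585 to 2944 with doxycycline in WT and 1607 to 1712 in KO. Krt8 and Krt18 gave most of each doxycycline sum. Of the 11 tested, 10 were lower and 0 higher in KO with doxycycline, where 19.1% and 17.9% of all tested genes were. The 12 summed to 419 to 453 CPM in WT and 471 to 500 in KO with retinoic acid. The 10 embryonic stem cell markers summed to 7356 to 7512 CPM in untreated WT and 8008 to 8066 in untreated KO, and to 839 to 894 with doxycycline in WT and 672 to 704 in KO. With retinoic acid they summed to 2985 to 3166 CPM in WT and 1982 to 2019 in KO. There 8 of the 10 were lower in KO and 0 higher, where 20% and 18.8% of all tested genes were. The part of these markers in the collagen levels was not tested.

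Feeder fibroblasts, a known source of collagens I and III, were checked by 15 markers. These summed to 254 to 258 CPM in untreated WT, 232 to 247 in untreated KO, 482 to 525 with doxycycline in WT, 696 to 749 in KO, 185 to 188 with retinoic acid in WT and 212 to 216 in KO. Vim, which stem cells also express, gave most of each sum. Of the 12 tested, 7 were higher and 0 lower in KO with doxycycline, where 17.9% and 19.1% of all tested genes were. Untreated, 4 were higher and 3 lower in KO (15.2% and 14.9% of all tested genes). With retinoic acid 3 were higher and 6 lower in KO (18.8% and 20% of all tested genes). With doxycycline Col1a1 was also higher in KO, but Col1a2 and Col3a1 did not pass the test. Col1a2 stood at 2.86 and 2.78 CPM in WT and 2.69 and 2.51 in KO with doxycycline. Col3a1 had 5 and 7 reads in WT and 4 and 2 in KO with it. Thy1 stood at 19.9 and 22 CPM in untreated WT and 30.2 and 29.4 in untreated KO. Fbln2 stood at 4.63 and 5.45 CPM in WT and 14 and 13.2 in KO with doxycycline, and at 7.09 and 9.28 in WT and 21.1 and 21.5 in KO with retinoic acid. Pdgfrb stood at 5.12 and 6.04 CPM in untreated WT and at 40.4 and 38.4 in WT and 34.2 and 32.3 in KO with retinoic acid. Acta2 went from 0.471 and 0.623 CPM in untreated WT to 12.5 and 10.1 with doxycycline, and from 0.256 and 0.0608 to 19.1 and 17.8 in KO. Fap, Lum and S100a4 stood at 0 to 0.311 CPM and Dcn at 0 to 0.704 CPM over the 12 libraries. The 12 mesoderm and chondrocyte markers summed to 14.2 to 23.1 CPM without retinoic acid and 65.2 to 72.2 with it, and Msgn1 was at 0 throughout. The 12 neural and neural crest markers summed to 526 to 531 CPM in the untreated groups, 116 to 121 with doxycycline in WT, 258 to 267 with doxycycline in KO and 107 to 112 with retinoic acid. The part of the fibroblast, mesoderm and neural markers in the collagen levels was not tested either.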

How the data were processed

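RNA was sequenced from 12 libraries, 2 in each of 6 groups. The deposited values are RSEM expected counts and TPM per gene. Per the submitters' processing notes, the authors used STAR 2.5.3a, RSEM 1.3.0, DESeq2 1.18.1 and the mm10 build. The gene models used for counting, and whether counting took strand into account, are not stated in any source used here.

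Expected counts were rounded to whole numbers. Genes were kept by edgeR's filterByExpr (edgeR 4.0.16, R 4.3.3), which left 17884. All 12 libraries entered 1 quasi-likelihood fit with TMM factors, 9 contrasts were tested, and p-values were adjusted by Benjamini-Hochberg over all genes kept, with a threshold of 0.05. With 15799569 to 21442034 counts a library, 3 reads were 0.14 to 0.19 CPM. Counting intervals are exact at 95% and cover counting error only. DESeq2 1.42.0 served as an alternative. The fit was also tested on simulated data, for KO against WT with doxycycline only. Changes were set only in genes with a mean of 1 CPM or more, so rarer genes were not covered. It recovered 82% of changes of 1.5-fold, 82% of 2-fold, 96% of 4-fold and 100% of 8-fold. Of 16801 unchanged genes it called 12.

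All 44 members were described, and other genes were named from the lists. The members and lists were chosen with earlier results of these data known.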

Additional observations from a re-analysis of the deposited data

Results flagged for a closer look

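These collagen genes are listed because their response to a treatment differed between KO and WT by the edgeR test of the difference itself, which subtracts the WT response from the KO response on the log2 scale. The responses share the untreated libraries of each line.

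For doxycycline 8 of 41 genes differed, a share near that of all tested genes (19.2%). The doxycycline response was more positive in KO for Col2a1 by 1.58, Col1a1 by 0.92 and Col5a1 by 0.37. It was more negative in KO for Col15a1 by -3.10, Col23a1 by -1.17, Col5a3 by -0.96, Col4a5 by -0.90 and Col20a1 by -0.62. For Col15a1 the KO doxycycline libraries held 0 and 3 reads. The DESeq2 Wald test gave an adjusted p for 31 collagen genes, and none for Col15a1. It called 2 genes more positive and 0 more negative, with Col5a3 at an adjusted p of 0.056. Leaving out 1 library ended the calls of Col1a1 (WT untreated replicate 1), Col5a1 (KO untreated replicate 2) and Col20a1 (WT untreated replicate 1). It did so for any 1 of 4 libraries with Col15a1 (adjusted p 0.055 to 0.13) and Col23a1 (adjusted p 0.12 to 0.25), and for any 1 of 5 with Col4a5 (adjusted p 0.052 to 0.23).

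The retinoic acid response was more positive in KO for Col25a1 by 1.64, Col2a1 by 1.10, Col4a2 by 0.58, Col4a1 by 0.55, Col11a1 by 0.50 and Col18a1 by 0.31. It was more negative for Col6a6 by -1.84, Col4a5 by -1.12, Col13a1 by -1.11, Col9a2 by -0.88, Col7a1 by -0.58 and Col20a1 by -0.58. The DESeq2 Wald test gave an adjusted p for 31 collagen genes here too, and none for Col6a6. It called 4 genes more positive and 2 more negative, with Col13a1 at an adjusted p of 0.055. The calls of Col25a1, Col11a1 and Col6a6 were each lost without any 1 of 6 libraries (adjusted p 0.056 to 0.33, 0.067 to 0.31 and 0.058 to 0.18), and that of Col7a1 without any 1 of 5 (0.050 to 0.20). Those of Col4a5 and Col18a1 were lost without WT untreated replicate 2 (0.070 and 0.051), and that of Col20a1 without replicate 1 of either untreated group (0.056 to 0.082).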

How the results depend on the processing

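Of 226 calls of a collagen gene in a comparison, 162 held under every alternative that covered them, 64 were lost under 1 or more, and 0 changed sign. The fit without chromosome 1 genes did not cover calls on that chromosome. DESeq2 gave no adjusted p for some genes, so such calls could not be lost there but are missing from its counts. The count of genes whose doxycycline response differed between the lines, 8, was 5 when the 8 libraries of the comparison were fitted alone, 2 by the DESeq2 Wald test and 4 to 11 when 1 library was left out. The matching count for retinoic acid, 12, was 6 by DESeq2 and 6 to 10 when 1 library was left out. The other 7 counts stayed within 1.5 times of their value under every alternative. A library left alone in its group was assumed to vary like the other groups. The fit did not pair samples by replicate number, since no label states a pairing. Deviations of same-numbered libraries correlated at -0.203 to 0.091 between groups, which with 2 libraries a group cannot settle whether samples were paired. With the replicate number as a block, the 2 counts of differing responses were 7 and 11 (Col23a1 with doxycycline at adjusted p = 0.055 and Col25a1 with retinoic acid at 0.052), and the other 7 did not change. Upper-quartile scaling moved the share of higher calls over all genes from 48.3% to 60.6% for KO against WT with doxycycline and from 47.6% to 61.9% for the difference of doxycycline responses. Calls on genes with few reads are limited by depth.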
